A study of Mus musculus with 18 samples.

Results

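Genes of histone H3.3 and of chromatin assembly were taken by name from the gene annotation, namely H3f3a, H3f3b, Hira, Daxx, Atrx, Chaf1a, Chaf1b, Smarcad1 and Morc3, which are 9 of 21774 protein-coding genes. For each gene, every peak of accessible chromatin over the gene body or within 50 kb of either annotated end was collected. This gave 205 distinct peaks of the 165744 on assembled chromosomes. The peaks come from 18 libraries of accessible chromatin (ATAC-seq) prepared from dTKO, a mouse embryonic stem cell line of genotype Suv39h1fl/fl ; Suv39h2-/- ; Setdb1fl/fl, grown with LIF and serum. ATAC-seq inserts sequencing adapters into open DNA with a transposase. The cells received auxin (100 µg/ml) together with dTAG13 (0.5 µM), agents that trigger breakdown of suitably tagged proteins, and were collected at 0 h, the baseline, and at 3, 6, 12, 24 and 48 h, with 3 biological repeats at each time, in order to ask where chromatin opens once H3K9 methyltransferases are lost. All libraries share the genotype, and which proteins carry a tag, and whether the line is a single clone, is not given in the labels.

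The values analysed were the positions of 1 peak list merged over all libraries, without counts, heights or library names. Sequencing depth is therefore unknown, no value has a replicate error, and change after 0 h was not analysed here. A peak below means that chromatin at that place entered the merged list, whatever the time. Chromatin at the marker genes of the labelled cell type was open, with a peak within 500 bp of an annotated end in 8 of 8 stem cell genes such as Pou5f1, Nanog and Sox2. The same held for 5 of 5 trophoblast, 3 of 6 primitive endoderm, 3 of 6 fibroblast and 1 of 5 blood genes, and for 71.4% of all protein-coding genes.

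Histone H3.3 is the variant of histone H3 that can be placed in chromatin at any time of the cell cycle, and H3f3a and H3f3b encode the same H3.3 protein. The HIRA chaperone places it mainly at active genes, and the DAXX chaperone with the remodeller ATRX places it at telomeres, pericentric repeats and silenced retroviral elements, which in embryonic stem cells also carry H3K9 methylation. CAF-1, with its large subunit from Chaf1a and a smaller one from Chaf1b, loads the replication-coupled H3 forms behind the DNA replication fork and helps to keep retroviral elements silent. SMARCAD1 is an SNF2-type remodeller that helps to restore H3K9 methylation after replication, and MORC3 is an ATPase of PML nuclear bodies that silences retroviral elements together with DAXX.

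The promoter sequences of 5 of the genes are printed here to show the open starts of both H3.3 genes, both CAF-1 subunits listed here and the HIRA gene, and the motif matches described below. They are bases just before a transcription start listed by RefSeq (GRCm38.p6), read 5′ to 3′ on the gene's own strand, and all of their bases lie inside the peak over that start. Capitals mark matches on either strand to any of 10 short motifs that were searched. H3f3a (chr1:180813606-180813755, minus strand) and H3f3b (chr11:116024505-116024654, minus strand) are the H3.3 genes, Chaf1a (chr17:56040266-56040415, plus strand) and Chaf1b (chr16:93883751-93883900, plus strand) encode subunits of the same complex, and the Hira sequence (chr16:18876638-18876749, plus strand) is the whole stretch of 112 bp between the annotated bodies of Hira and its divergent neighbour Mrpl40.
H3f3a: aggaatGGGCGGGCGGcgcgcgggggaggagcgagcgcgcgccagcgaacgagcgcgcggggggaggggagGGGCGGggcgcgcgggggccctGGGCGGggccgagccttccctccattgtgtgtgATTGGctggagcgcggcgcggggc
H3f3b: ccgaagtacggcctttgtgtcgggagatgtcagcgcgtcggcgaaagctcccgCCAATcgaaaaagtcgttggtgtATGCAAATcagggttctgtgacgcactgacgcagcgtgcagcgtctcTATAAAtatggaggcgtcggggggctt
Chaf1a: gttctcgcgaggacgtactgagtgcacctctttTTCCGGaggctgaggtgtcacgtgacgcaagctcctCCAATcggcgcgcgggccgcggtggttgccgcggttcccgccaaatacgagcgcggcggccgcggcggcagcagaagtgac
Chaf1b: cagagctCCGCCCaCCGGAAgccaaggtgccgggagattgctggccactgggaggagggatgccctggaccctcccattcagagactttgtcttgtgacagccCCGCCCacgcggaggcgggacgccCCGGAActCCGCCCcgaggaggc
Hira: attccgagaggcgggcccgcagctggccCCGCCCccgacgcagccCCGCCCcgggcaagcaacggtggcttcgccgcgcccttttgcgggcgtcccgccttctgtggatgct

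All 9 genes had a peak within 500 bp of an annotated end, where 71.4% of protein-coding genes did. With the starts that RefSeq lists, which give the direction of transcription, a peak lay over a start in 9 of 9 genes and over all 12 of their listed starts, where 67.9% of 17492 protein-coding genes with a listed start had 1 over a start. The peak at the annotated 5′ end was present in 8 genes, against 67.1% of those genes. The exception was H3f3b. At the annotated 3′ end, 3 genes had a peak, namely H3f3b, Daxx and Chaf1b, against 21.6%. Both ends had a peak in Daxx and Chaf1b alone, 2 of 9 genes against 18.2%. That count reached 9 with windows of 2000 bp, where 43.7% of protein-coding genes had a peak at both ends. It was 1, for Chaf1b, with only peaks wider than the median of the list. Of the 3′ ends called, that of Chaf1b lay under its peak and those of Daxx and H3f3b lay 73 and 127 bp from theirs. The nearest peaks beyond the 500 bp limit were those of H3f3a, Chaf1a and Hira, at 533, 670 and 696 bp.

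**Figure D1:**
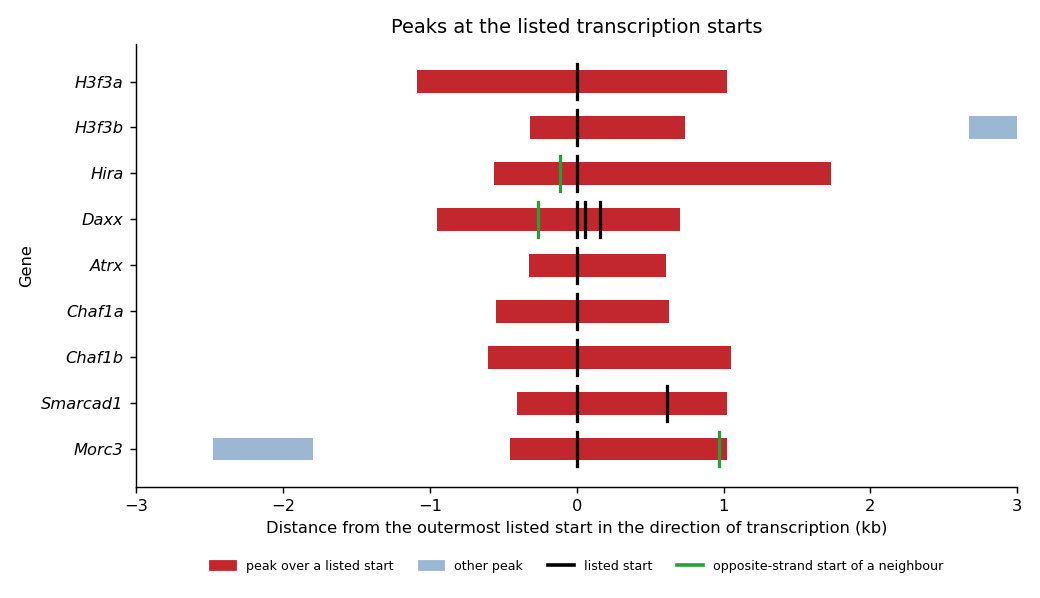
Peaks within 3 kb of the outermost listed start of each gene, drawn in the direction of transcription (x axis, kb), with black lines for listed starts and green lines for opposite-strand starts of neighbours. All 9 genes have a peak over the start, and the Hira peak, the widest at 2299 bp, runs 1732 bp into the gene.

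The 2 genes for H3.3 had unlike starts. H3f3a (chromosome 1, 180802560 to 180813605, minus strand, GRCm38) had a start peak of 2114 bp at 180812579 to 180814692, wider than 92.0% of the start peaks of protein-coding genes, whose median was 1333 bp over 11885 genes. It reached 1087 bp upstream and 1026 bp downstream of the start. H3f3b (chromosome 11, 116021961 to 116026039, minus strand) had a start peak of 1055 bp at 116023768 to 116024822, wider than 24.0% of them, which reached 318 bp upstream and 736 bp downstream.

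The H3f3b start peak lay inside the annotated gene, with its nearer edge 1217 bp from the annotated 5′ end. The listed start, at 116024504, itself lies inside the annotated gene. A peak over a listed start with none at the annotated 5′ end was found in 4.85% of protein-coding genes with a listed start, and among the 9 genes in H3f3b alone. It was the only peak over the H3f3b body. The other peak at that gene, 1683 bp at 116020152 to 116021834, lay past the 3′ end.

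Both H3.3 genes had a wide peak just past the 3′ end. At H3f3a it was 2489 bp wide, at 180799539 to 180802027, and wider than the gene's own start peak. Only 2 peaks of the H3f3a neighbourhood exceeded 2000 bp, the start peak and this one, a width that 1.79% of all peaks on assembled chromosomes exceeded. Inside H3f3a a single further peak of 925 bp was found, at 180803513 to 180804437.

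Base composition and motifs also differed between the H3.3 promoters. In the 250 bases upstream of the start, H3f3a held 77.2% G and C and 35 CpG dinucleotides, and H3f3b 54.0% and 19, while the median over the 17341 listed starts under a peak was 60.0% and 15. The TATA box letters, TATAAA, were found 27 to 22 bases upstream of the H3f3b start and at no other listed start of the 9 genes. They occurred in 5.95% of the upstream sequences of open starts and in 12.4% of all 32850. H3f3b also held the octamer letters ATGCAAAT at 74 to 67 bases upstream, found in 1.48% of open starts, and 4 matches to CCAAT (the NF-Y box), the nearest at 97 to 93 bases. H3f3a had 4 matches to GGGCGG (GC box), the farthest pair of which share 2 bases, and 1 to CCAAT on the opposite strand at 24 to 20 bases upstream.

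Over the whole group, CCAAT was present upstream of 6 genes (H3f3a, H3f3b, Daxx, Atrx, Chaf1a and Morc3), where 34.6% of open starts held it. GGGCGG was present in 5 genes against 56.3%, and CCGGAA (an ETS core) in Hira, Daxx, Chaf1a, Chaf1b and Smarcad1 against 19.8%. The letters TGACGT of the CRE were found at Atrx alone, against 9.15%, and GCATGCGC, part of the NRF1 motif, at Morc3 alone, against 3.88%. The E2F letters TTTGGCGC and TTTCCCGC and the YY1 letters AAGATGGC were found at none of the 9 genes, and in 0.721%, 1.52% and 1.83% of open starts. Genes with several listed starts had more bases to match, and a match of letters is no evidence of binding. Only these exact letters were searched. Other forms of the same motifs would be missed, so lack of a match is no evidence that a promoter lacks such a site.

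The HIRA, DAXX and ATRX genes, which encode the H3.3 deposition factors, spanned the range of start peaks. Hira (chromosome 16, 18876750 to 18970309, plus strand) had the widest of the 9, 2299 bp at 18876184 to 18878482, wider than 95.0% of start peaks of protein-coding genes. Daxx (chromosome 17, 33909404 to 33915590, plus strand) had 1 of 1659 bp at 33908493 to 33910151, which covered its 3 listed starts. Atrx (chromosome X, 105797615 to 105929372, minus strand) had the narrowest, 932 bp at 105928765 to 105929696, wider than 15.6%. Start peaks of genes on chromosome X had a median of 1218 bp, and the part of the chromosome in the Atrx width was not tested. Atrx was also the gene with the fewest CpG dinucleotides upstream, 6 in 250 bases, and 48.4% G and C.

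Hira and Daxx shared their start peaks with neighbours on the opposite strand. The start of Mrpl40, which encodes a protein of the mitochondrial ribosome, lay 113 bp from that of Hira, and the start of the noncoding gene BC051226 lay 267 bp from the nearest Daxx start. Morc3 (chromosome 16, 93832121 to 93876077, plus strand) was the other such gene, with the start of the noncoding gene Gm30881 971 bp inside it on the opposite strand. An opposite-strand start within 1000 bp was found for 16.2% of protein-coding genes with a listed start. In all 3 genes a single peak covered both starts, as it did in 2510 of the 2834 protein-coding genes with such a neighbour, so the list cannot tell which of the genes the open chromatin belongs to.

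**Figure D2:**
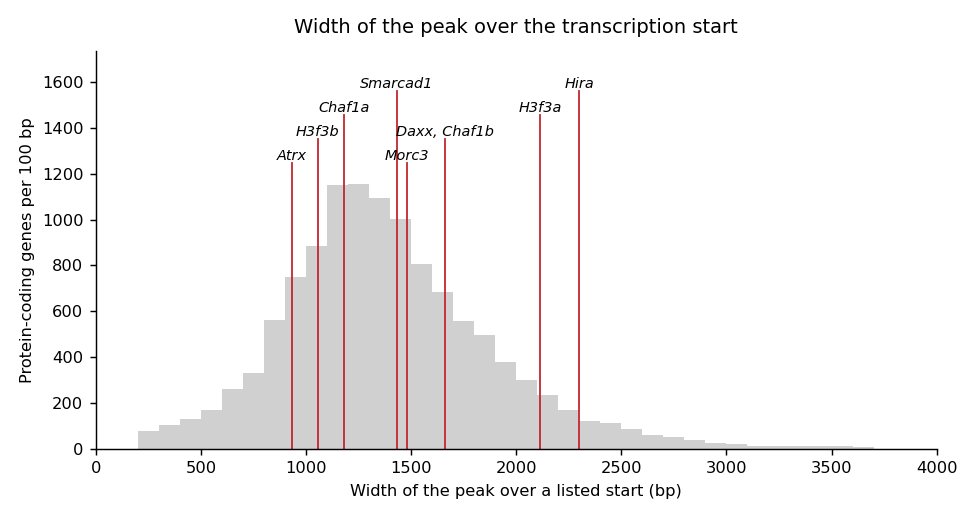
Width of the peak over the outermost covered start (x axis, bp, shown up to 4000) in protein-coding genes (grey, genes per 100 bp of width), with the 9 genes as red lines. The 9 genes run from Atrx at 932 bp to Hira at 2299 bp, around the median of 1333 bp for all genes.

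The genes of the replication-coupled assembly and silencing factors lay nearer the middle of that range, as did Daxx, whose start peak was as wide as that of Chaf1b. Chaf1a (chromosome 17, 56040416 to 56068026, plus strand) had a start peak of 1180 bp at 56039868 to 56041047, and Chaf1b (chromosome 16, 93883900 to 93906115, plus strand) 1 of 1659 bp at 93883295 to 93884953. Smarcad1 (chromosome 6, 65042591 to 65116061, plus strand) had 1 of 1433 bp over both of its listed starts, at 65042184 to 65043616. Morc3 had 1 of 1481 bp at 93831666 to 93833146. The median over the 9 genes was 1481 bp, and 6 of them lay above the 1333 bp of all protein-coding genes. From the start, peaks of the 9 genes reached a median of 1025 bp into the gene and 548 bp upstream, where those of protein-coding genes reached 712 and 557 bp.

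Away from the ends, Smarcad1 stood out among the long genes by the width of its peaks. It held 15 peaks over its body of 73.5 kb, 14 of them away from its ends, with widths of 215 to 1303 bp and a median of 950 bp. Of those 14 peaks, 11 were wider than 538 bp, the median of 69726 peaks inside protein-coding genes, and 9 were wider than the 75th percentile of 816 bp. Its density of 20.4 peak midpoints per 100 kb exceeded that of 94.0% of the 1559 protein-coding genes within 1.25-fold of its length. The widest internal peak, 1303 bp, lay at 65078170 to 65079472, and the longest stretch of the body without a peak was 9.07 kb, which ends at the gene's 3′ end.

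Atrx and Hira, the other long genes of the group, held narrow internal peaks. In Atrx 17 peaks lay away from the ends over a body of 132 kb, with a median width of 398 bp, and 5 of them were wider than 538 bp. The widest, 956 bp at 105924253 to 105925208, lay near the start of the gene. Those of 463 bp at 105843852 and 557 bp at 105849211 also lay at annotated ends of Gm14853, another gene within Atrx. In Hira 9 peaks away from its ends over 93.6 kb had a median of 356 bp, none was wider than 652 bp, and 2 exceeded 538 bp. Stretches without a peak reached 25.3 kb in Atrx and 22.7 kb in Hira. In number the bodies were not sparse, since Atrx at 13.7 and Hira at 10.7 midpoints per 100 kb exceeded 82.4% and 64.5% of genes of like length.

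Chromosome X as a whole held few peaks around genes, and Atrx stood high within it. With 10.4 peaks per 100 kb of body and flanks, Atrx lay above 87.3% of the 963 protein-coding genes on X, whose median was 3.68, but above only 48.8% of all protein-coding genes. The autosomal median was 11.0. The number of X chromosomes in the cells and the repeat content of X were not examined, and their part in these densities was not tested.

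Morc3 and Chaf1b are neighbours on chromosome 16, with 7822 bp between them, and both bodies were dense in peaks. Morc3 held 9 internal peaks with a median width of 517 bp, the widest of them 1146 bp at 93870604 to 93871749, and Chaf1b 4 with a median of 543.5 bp. Their densities of 22.7 and 22.5 midpoints per 100 kb exceeded 94.3% and 89.1% of genes of like length. In the gap between them lay a peak of 1307 bp at 93877117 to 93878423 and 1 of 245 bp. Chaf1a held 2 internal peaks, of 1057 bp at 56057104 to 56058160 and of 675 bp, and stood at the middle of genes of its length, above 47.7% of them.

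The short genes had little room for internal peaks. Daxx, 6187 bp long, had no peak midpoint in its body, because its start peak is centred upstream of the annotated 5′ end and its other peak, 523 bp at 33915663 to 33916185, lay past the 3′ end. That peak also overlaps an annotated end of Zbtb22, a zinc finger gene. H3f3b at 24.5 midpoints per 100 kb and H3f3a at 9.05 rest on a single midpoint each. Among genes of like length, H3f3b lay above 67.4%, H3f3a above 33.8% and Daxx above none. Over the 9 genes the median body density was 13.7, against 9.53 for all protein-coding genes, and 7 of 9 lay above it. Densities of genes this unlike in length are not comparable without the bands of like length given above.

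**Figure D3:**
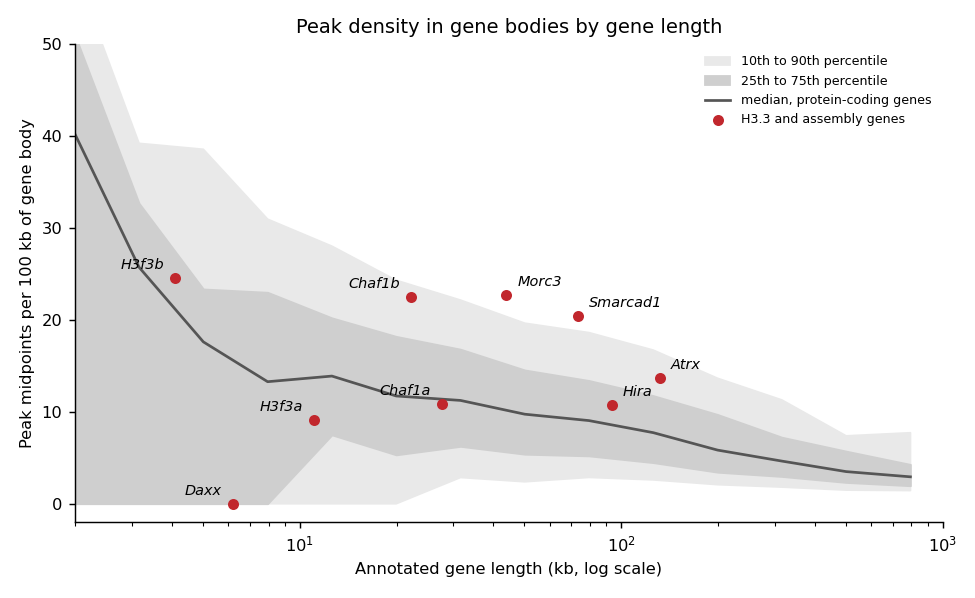
Peak midpoints per 100 kb of gene body (y axis) against annotated gene length (x axis, kb, log scale), with bands for protein-coding genes of each length and red points for the 9 genes. Smarcad1, Morc3 and Atrx lie above the median of their length at 20.4, 22.7 and 13.7, as do Chaf1b, H3f3b and Hira. H3f3a and Chaf1a lie below it, and Daxx lies at 0.

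The 50 kb flanks were filled to unlike degrees. Including flanks, Morc3 and Smarcad1 had 36 peaks each, H3f3b and Chaf1b 26, Atrx 24, Hira, Daxx and Chaf1a 21, and H3f3a 16. The count of 227 over the genes includes 22 peaks that Morc3 and Chaf1b share. By density, Morc3 with 25.0 and H3f3b with 25.0 peaks per 100 kb were highest, above 99.3% and 99.2% of protein-coding genes. Atrx with 10.4 and Hira with 10.8 were lowest. The median over the 9 genes was 19.8, against 10.6 for all protein-coding genes, and 8 of 9 lay above that of all genes. These genes were chosen with earlier results known, and no test was made.

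What the flank peaks covered differed between neighbourhoods. Of the 21 peaks around Daxx, 12 lay at the ends of other genes and 7 in their bodies, in a gene-rich stretch with Kifc1, Tapbp and Rps18, and 0 lay between genes. Around H3f3b, 18 of 26 peaks lay in the bodies of other genes, among them the integrin gene Itgb4 and the RNA-binding protein gene Unk. At Smarcad1, 15 of the 36 peaks lay between genes, all of them in the 50 kb upstream of its start, where no other gene is annotated. The widest of those was 1585 bp, at 65011063 to 65012647. Hira likewise had 10 of 21 peaks between genes.

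The widest peak of a neighbourhood belonged to the gene itself in Hira and Chaf1b. For Morc3 it was the 1659 bp start peak of Chaf1b. For Atrx it was a peak of 2796 bp at 105762688 to 105765483 over an end of Fgf16, a growth factor gene, and Atrx also had a peak of 2081 bp at 105937813 to 105939893, upstream of its start and at no annotated gene end. For Daxx it was 1 of 2241 bp at 33950483 to 33952723 across ends of B3galt4 and the ribosomal protein gene Rps18. For Chaf1a it was 1 of 1851 bp across ends of Stap2 and Mpnd, and for H3f3b 1 of 1762 bp over an end of the noncoding gene B230344G16Rik. For H3f3a and Smarcad1 it lay between genes.

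**Figure D4:**
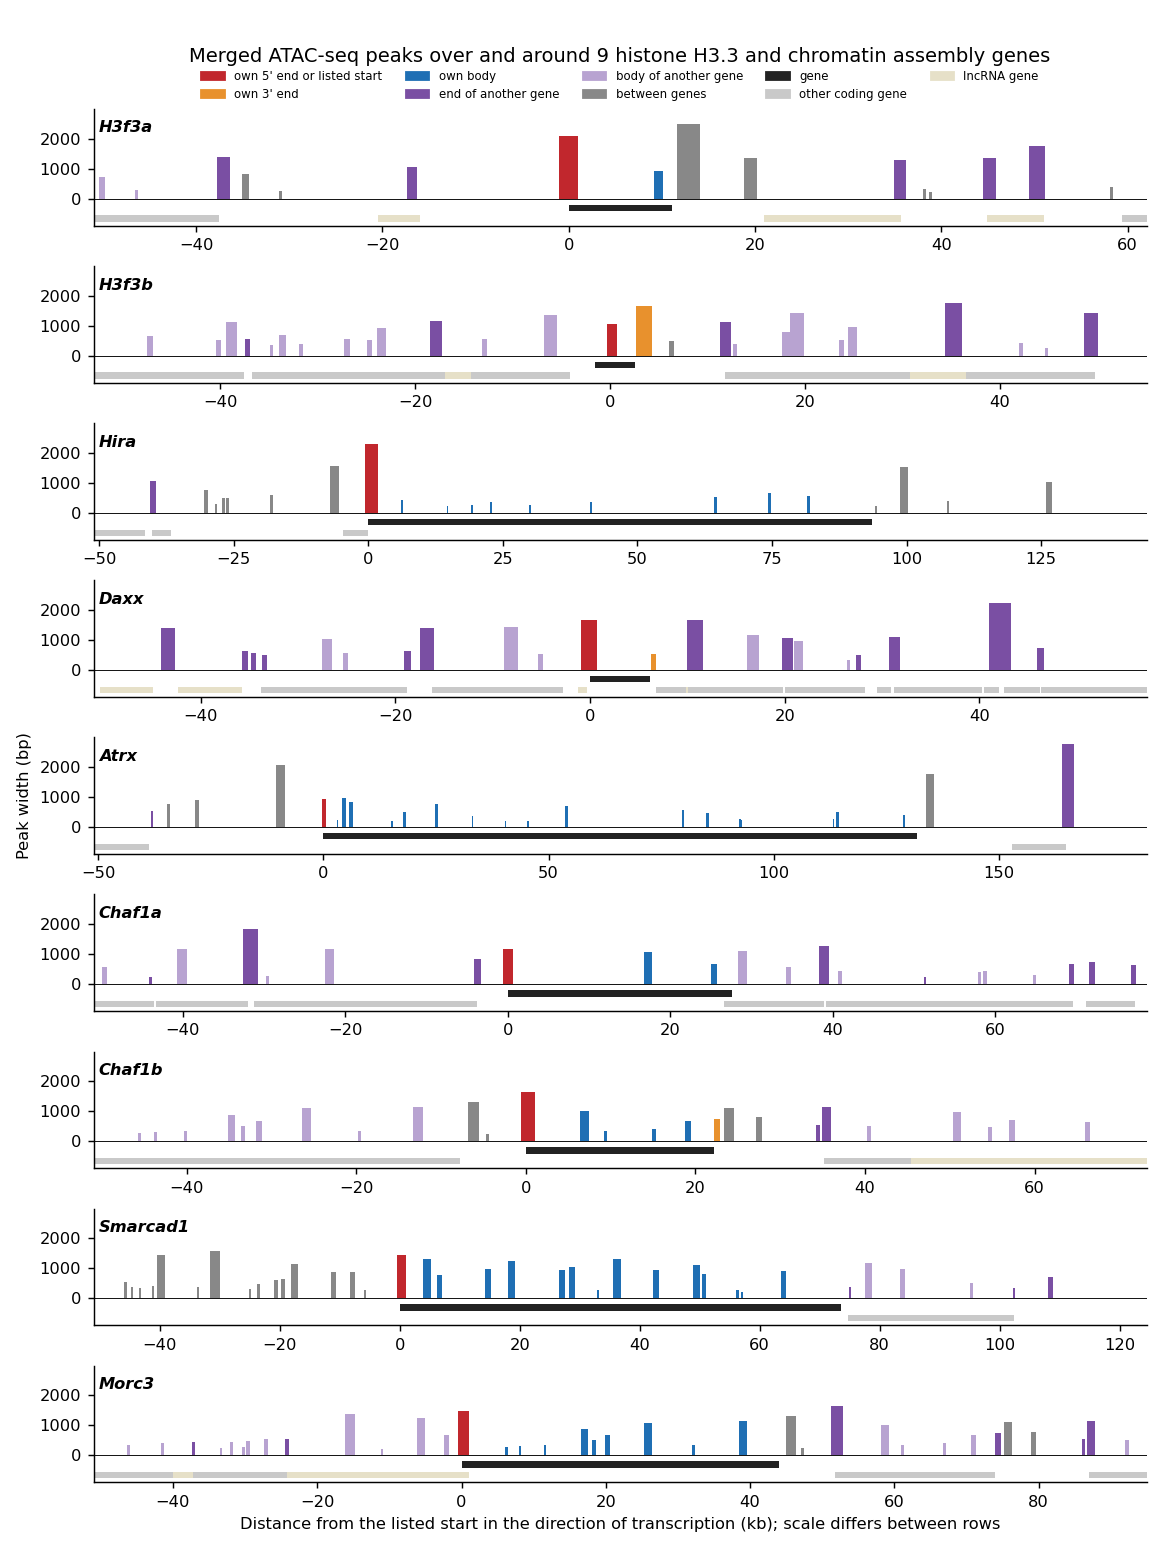
Peaks over each gene and its 50 kb flanks, with bar height for peak width (y axis, bp), position in kb from the listed start in the direction of transcription (x axis, bars drawn at least 0.35 kb wide), and colour for what the peak covers. Black bars are the genes, and the rows show 14 internal peaks in Smarcad1, 11 of them wider than 538 bp, 17 in Atrx, 5 of them wider than 538 bp, and crowded neighbouring genes around Daxx and H3f3b.

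Other genes of these pathways were listed by role. Of 55 such genes 51 had a peak within 500 bp of an annotated end, where 71.4% of protein-coding genes did. These were 5 of 5 HIRA partners, such as Ubn1 and Ubn2 with peaks of 1752 and 1813 bp, and 3 of 3 CAF-1 partners, such as Rbbp4 and Rbbp7 with 1450 and 1717 bp. They were 16 of 17 other histone chaperones, such as Nap1l1 with 1628 bp and Nasp with 1 of 1906 bp, and all 20 SNF2 remodellers, such as Smarca1 with 1685 bp and Smarca2 with 874 bp. They were also 3 of 4 further MORC genes, among them Morc1, a germline factor, with 960 bp and Morc2a with 1633 bp, and 4 of 6 genes of PML bodies and ATRX partners, such as Pml with 1058 bp. Among the exceptions were the chaperone gene Dek, Morc2b, and Sp100, which encodes a PML body protein, with nearest peaks 0.673, 3.70 and 3.76 kb from an end. Of the 45 genes of these lists that have a listed start, 44 had a peak over 1, Dek and Morc2b included, and Sp100 did not, where 67.9% of protein-coding genes with a listed start had 1.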

How the data were processed

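The authors deposited 1 list of 166066 peaks merged over the 18 libraries, with chromosome, start and end only, of which 322 lay on contigs and were left out. Widths run from 198 to 10001 bp with a median of 578 bp. The submitters' processing notes list MACS2 2.2.7.1, Bowtie2 2.4.2 and Trimmomatic 0.36, with mm10 and GRCm38 as builds. Peak calling and merging settings, removal of duplicates and any shift of read ends for the transposase were not given in the sources used here. Such a shift moves a peak edge by a few bases, while the calling threshold decides whether a peak is listed at all.

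Gene ends came from a RefSeq table of GRCm38.p6 (49595 genes, after 348 with scaffold coordinates were left out), and starts, strands and upstream sequence from a RefSeq promoter table of the same build, which lists 32850 starts, 12 of them for the 9 genes. All 9 genes matched by symbol. An end is a window of 500 bp either side, met by an overlap of at least 1 bp. Body density counts midpoints per 100 kb, and neighbourhood density counts peaks that overlap the body or its 50 kb flanks. Motifs were searched on both strands in 250 bases upstream of a start. No test was run, since the list gives no value per library, and the number of per-sample value columns not used was 0. The planned comparison of later times with 0 h was therefore not made. The members and lists were chosen with earlier results of these data known, and the 5′ and 3′ ends and motifs were added after the data had been seen. Named genes were the 9 members, up to 2 genes with a peak and every gene without 1 from each further list, genes at the widest peak of each neighbourhood, and copies whose symbol begins with a member's. Some genes that this rule names are not reported here, though the counts of their lists include them. A few neighbours (Mrpl40, BC051226, Gm30881, Zbtb22, Kifc1, Tapbp, Itgb4, Unk) were named after their values were seen. The interval searches were tested on simulated data. The scripts ran under Python 3.11.15 with pandas 2.3.3 and numpy 2.4.6, and figures were drawn with matplotlib 3.10.9.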

Additional observations from a re-analysis of the deposited data

How the results depend on the processing

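The number of the 9 genes with a peak at an annotated end was 9 with windows of 250 or 2000 bp, an overlap of 200 bp, only peaks wider than the median, and listed starts in place of ends, the last chosen after seeing the data. The share of all protein-coding genes moved to 68.8%, 79.7%, 69.4%, 66.7% and 67.9% in those settings, from 71.4%. The number with peaks at both ends was 9 with windows of 2000 bp and 1 with wide peaks alone, against 2. The median neighbourhood density of the 9 genes was 11.1 peaks per 100 kb with wide peaks alone, against 19.8, a change that follows from counting fewer peaks, and all protein-coding genes then had 5.58 against 10.6. The other 16 recomputed summary values of the 9 genes and of the further lists stayed within 1.5 times of the value first given. Values for all protein-coding genes were less stable. Their share with peaks at both ends, first 18.2%, was 43.7% with windows of 2000 bp. It was about 12% with windows of 250 bp or wide peaks alone, and about 13% with an overlap of 200 bp. Their median body density fell by more than 1.5 times with wide peaks alone. The peak counts of single neighbourhoods move with the flank by construction. No paired analysis was possible because the peak list holds no value per library, and for the same reason no library could be left out. Depth is unknown, so the lack of a peak is no sign that chromatin was closed.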

Other observations

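Genes whose symbols name them as copies of the H3.3 genes were also looked up. H3f3c, a protein-coding gene of 1037 bp on chromosome 2 (119665116 to 119666152), had a peak of 418 bp at 119665907 to 119666324 across an end, and the pseudogene H3f3a-ps2 on chromosome 16 (91113671 to 91114703) had 1 of 468 bp at 91114276 to 91114743. The pseudogene H3f3a-ps1 on chromosome X (101824425 to 101825287) had no peak over it, and its nearest peak lay 4.80 kb away. Their sequences were not compared with those of H3f3a and H3f3b here, and whether reads were misplaced among them was not tested. Both peaks are narrower than the start peaks of H3f3a and H3f3b, 2114 and 1055 bp.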
